A study of Mus musculus with 182 samples.

Results

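Chromatin regulators, among them genes that are mutated in lymphomas of germinal centre origin, were examined in single germinal centre B cells of the mouse spleen. The group held 10 genes taken by symbol, Ezh2, Suz12, Eed, Kmt2d, Kmt2a, Crebbp, Ep300, Hdac3, Kdm1a and Dnmt1, out of 17034 gene symbols in the table. All 10 were present and were detected in at least 10% of cells, so none was lost to a filter on low values. Every one of the 182 cells came from C57BL/6 mice on day 13 after intraperitoneal immunisation with 100 μg NP(23)-KLH in 50% alum with 1 μg LPS. The cells had been sorted as B220+, Fas high and GL7 high, and the sample labels add NP binding. No animal is named, so the cells were treated as 1 biological sample, no group could be compared, and no p-value was computed.

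The genes act at different steps on histones and DNA. Ezh2, Suz12 and Eed form the core of Polycomb repressive complex 2, which methylates lysine 27 of histone H3 and holds genes silent. Ezh2 is the methyltransferase, Suz12 the scaffold and Eed the subunit that reads the methyl mark. Kmt2a and Kmt2d methylate lysine 4 of histone H3, Kmt2a at promoters and Kmt2d at enhancers. Crebbp and Ep300 are paralogous histone acetyltransferases that activate enhancers, and Hdac3 is the deacetylase of the NCoR and SMRT corepressors, which Bcl6 recruits. Kdm1a removes methyl groups from lysine 4 of histone H3, and Dnmt1 copies DNA methylation onto new strands after replication. In the germinal centre, Bcl6 keeps B cells in a dividing state in which checkpoint and exit genes are held down. Cells divide in the dark zone and are selected in the light zone.

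The values are a normalized signal that is not on a log scale, and detection means a value of 1 or more. The number of genes at that value was nearly fixed from cell to cell, 1873 to 1946 in set 1 and a median of 1690 in set 2 (995 to 1741). Detection is therefore close to a cut on a gene's rank within its cell, at a rank that differs between the sets, and a lower share in set 2 may not be a lower level. The columns form 2 sets by their values, cells 1 to 96 (set 1, 96 cells) and cells 97 to 182 (set 2, 86 cells). The lowest value of a gene differs between the sets and is called its floor. Since no read counts were used, the depth of each cell is unknown. The number of genes above their floor, used in its place, ran from 1904 to 4495 in set 1 and from 980 to 5149 in set 2. Cell 122 had the highest summed value, 3443763, against a median of 362544 over all cells. The B cell markers Cd79b and Ms4a1 were nearly general, in 180 and 176 cells. Of 10 germinal centre B cell markers, 7 were found in over 50% of cells, and the lowest share was 45.1%, for S1pr2. Bcl6 was detected in 106 cells. Of 5 T cell markers in the table, Cd3d and Cd4 were detected in no cell and 2 cells held at least 2. Of 6 myeloid markers, 7 cells held at least 2, and Lyz2 was found in 15 cells. Il7r was found in 12 cells and, among plasma cell markers, Xbp1 in 46 and Irf4 in 24. Of 4 plasma cell markers, 67 cells held at least 1 and 7 cells at least 2.

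The promoters of the 4 genes linked below to the S phase score are shown first. Whether their letters bear on that pattern was not tested. The promoters come from RefSeq (GRCm38.p6, the same assembly as mm10), and entries for 9 of the 10 genes, all but Hdac3, were used. Letters searched on both strands were the E2F sites TTTCCCGC and TTTGGCGC, the cell cycle homology region TTTGAA and the NF-Y box CCAAT. Matches are in capitals, as ATTGG or TTCAAA where they lie on the other strand.
Ezh2 (chr6:47595059-47595130, minus strand): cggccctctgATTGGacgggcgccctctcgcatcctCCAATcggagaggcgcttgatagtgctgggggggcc
Dnmt1 (chr9:20959889-20960033, minus strand): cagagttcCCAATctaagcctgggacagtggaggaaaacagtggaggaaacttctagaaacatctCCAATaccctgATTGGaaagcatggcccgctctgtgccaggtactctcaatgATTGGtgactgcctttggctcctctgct
Suz12 (chr11:79992881-79993061, plus strand): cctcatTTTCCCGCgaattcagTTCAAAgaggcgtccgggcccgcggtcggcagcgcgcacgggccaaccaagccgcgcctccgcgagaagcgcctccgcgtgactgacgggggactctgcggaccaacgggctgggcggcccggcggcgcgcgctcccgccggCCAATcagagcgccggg
Eed (chr7:89981141-89981181, minus strand): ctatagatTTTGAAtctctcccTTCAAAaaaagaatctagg

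An NF-Y box CCAAT lay within the promoter windows of 5 of the 9 genes, namely Ezh2, Suz12, Eed, Dnmt1 and Kdm1a, against 37.4% of 32851 promoters in the RefSeq table. No match to any of the 4 motifs was found in the windows of Kmt2a, Kmt2d, Crebbp and Ep300. Of the 3 annotated promoters of Dnmt1, the furthest upstream held 5 CCAAT boxes, 4 of them in the stretch shown. At least 5 are reached by 0.271% of all promoters. A second Dnmt1 promoter held 3 CCAAT boxes and the remaining promoter none. Which of them is used in these cells was not tested. Ezh2 held 3 CCAAT boxes, which 3.37% of promoters reach. An E2F site was found for 3 genes, with any of the 3 promoters of Dnmt1 counted, against 1.56% of single promoters. It was TTTCCCGC in Suz12, 219 bases before the RefSeq start, and TTTGGCGC in Ezh2, 3 bases after it. In Dnmt1 it was TTTGGCGC in a second of its 3 annotated promoters. The RefSeq start used for Ezh2 and the Ezh2 stretch shown lie inside the GENCODE span given below. The region TTTGAA was found in Suz12, Dnmt1 and Eed, against 17.9% of promoters. The Eed stretch shown lies in an exon of E230029C05Rik, a noncoding transcript on the opposite strand. A match describes the letters only.

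The first question was in how many cells each regulator was found. Transcripts of 4 of the 10 genes, Kmt2a, Ezh2, Kmt2d and Dnmt1, were detected in over 50% of cells, where 3.79% of all 17034 genes reached that share. The other 6 ranged from 46.2% for Eed to 14.3% for Kdm1a. The median share over the 10 was 44.0%. A share reflects transcript length and capture as well as expression, so the order does not rank the genes by level. In set 1 alone 5 of the 10, now with Eed, passed 50% (background 4.64%), and in set 2 alone the same 4 (background 3.01%). Set intervals overlapped for each of the 10 genes, with the widest gaps for Eed and Dnmt1.

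**Figure D1:**
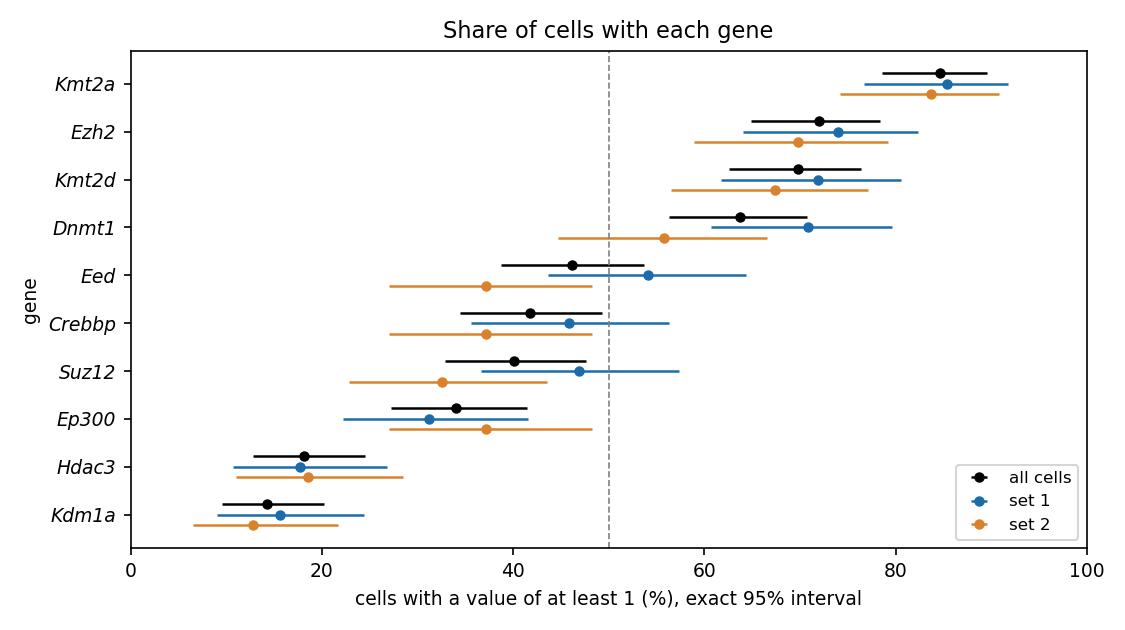
Share of cells at a value of 1 or more (x axis, %) for each of the 10 genes (y axis), over all 182 cells (black), set 1 (blue) and set 2 (orange). Bars are exact 95% intervals for counting error, and the dashed line marks 50%. Kmt2a, Ezh2, Kmt2d and Dnmt1 lie to its right in all cells, and Hdac3 and Kdm1a lie below 20%.

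Of the Polycomb core, the catalytic subunit Ezh2 (chromosome 6, 47530139 to 47595341, mm10) was found in 131 of 182 cells (72.0%, exact Clopper-Pearson 95% interval 64.9 to 78.4). Its signal had a lowest value of 0, a median of 5.31 and a highest of 2980 in set 1. In set 2 these were 0.177, 2.84 and 2126. The ranges of the sets overlapped, and single cells differed widely in both. Eed (chromosome 7, 89954654 to 89980983) was found in 84 cells (46.2%, 38.8 to 53.7). Its share was 54.2% in set 1 and 37.2% in set 2. Its median was 1.24 in set 1 and stood at the floor of 0.121 in set 2. Suz12 (chromosome 11, 79993106 to 80034123) was found in 73 cells (40.1%, 32.9 to 47.6). The sets gave 46.9% and 32.6%. Its highest values were 272 and 147. The subunits of 1 complex were thus not detected in equal shares of cells.

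Of the lysine 4 methyltransferases, Kmt2a (chromosome 9, 44803355 to 44881296) was the most widely detected of the 10, in 154 cells (84.6%, 78.5 to 89.5). Its median signal was 22.4 in set 1 and 16.9 in set 2, with highest values of 1335 and 1966. Kmt2d (chromosome 15, 98831669 to 98871204) was found in 127 cells (69.8%, 62.5 to 76.4). Its medians were 4.52 and 4.58, and its shares were 71.9% and 67.4%, so the sets did not differ beyond counting error. The intervals of Kmt2d, Ezh2 and Dnmt1 overlapped, and the interval of Kmt2a lay just above that of Ezh2.

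The acetyltransferases were found in fewer cells. Crebbp (chromosome 16, 4081328 to 4213997) was detected in 76 cells (41.8%, 34.5 to 49.3) and Ep300 (chromosome 15, 81585351 to 81652077) in 62 (34.1%, 27.2 to 41.4). In set 1 Crebbp had a median of 0.701 and a highest value of 1351, and in set 2 of 0.199 and 1645. Ep300 had medians of 0.305 and 0.294 and highest values of 513 and 2199. Both paralogs were found in 28 cells, where independence would give 25.9.

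The enzymes that remove marks were rarest. Hdac3 was detected in 33 cells (18.1%, 12.8 to 24.5) and Kdm1a (chromosome 4, 136550540 to 136602723) in 26 (14.3%, 9.55 to 20.2). Their medians were at the floor in both sets, and their highest values were 1917 and 954 for Hdac3 and 225 and 170 for Kdm1a. A few cells therefore carried high signal while most had none above the floor. Dnmt1 (chromosome 9, 20907209 to 20959888), the maintenance methyltransferase, was found in 116 cells (63.7%, 56.3 to 70.7). It was found in 70.8% of cells in set 1 and 55.8% in set 2. Its median signal was 6.19 and 3.16, with highest values of 1235 and 1669.

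**Figure D2:**
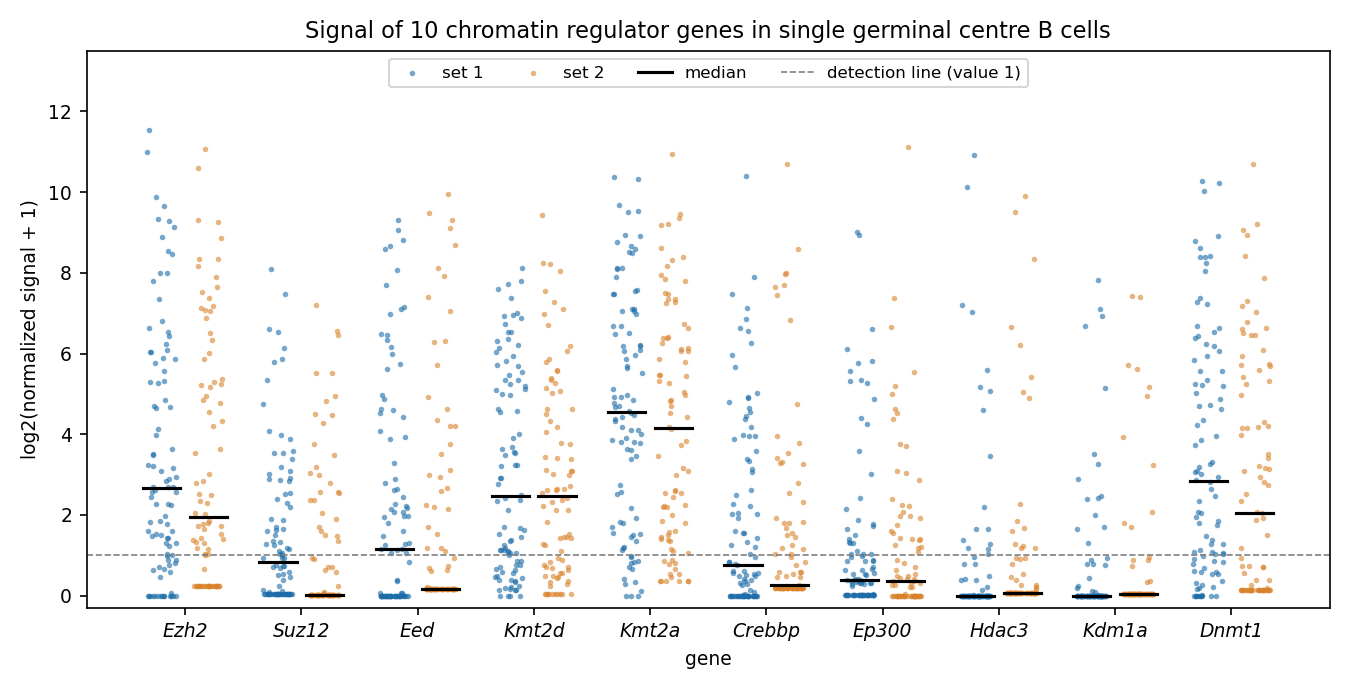
Normalized signal of each of the 10 genes as log2(value + 1) (y axis), with 1 point per cell, set 1 in blue and set 2 in orange. Black bars are medians and the dashed line is the detection value of 1. Points at the bottom are cells at the gene's floor, and they make up most of the cells for Hdac3 and Kdm1a.

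How many of these regulators a cell held at once was counted next. The median was 5 of 10 in both sets. Cells of set 1 held between 1 and 9, and those of set 2 between 0 and 8. Of all 182 cells, 46 held 5, 1 held none and none held all 10. At a value of at least 5 in place of 1, only Kmt2a stayed above 50% of cells (65.4%), while Dnmt1 reached 49.5%, Kmt2d 48.9% and Ezh2 47.3%. Above the floor, 8 of the 10 passed 50%, with Kmt2a at 95.1% and Kmt2d at 92.3%.

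The relation of each gene to division, to the zones and to Bcl6 was then measured across cells by Spearman's rho. A relation is called linked here when rho was at least 0.15, or at most -0.15, in each of the 2 sets taken alone. The values describe 182 cells prepared by the same protocol and treated as 1 biological sample. Cells of a set also share a nearly fixed number of genes at a value of 1 or more. A rho of this size in sparse data is small. The S phase score is the mean z-score of 27 genes of DNA copying, such as Mcm3 and Rrm2, and the G2/M phase score that of 25 genes of mitosis, such as Top2a and Cenpe. The dark zone and light zone scores rested on 11 and 15 genes. As a check, every list gene was compared with its own score, computed without it. For the dark zone 0 of 11 passed the line (median rho 0.06), and for the light zone 1 of 15, Nfkbia (0.12). The S phase list had 16 of 27 past it (0.26) and the G2/M list 24 of 25 (0.41). The zone lists thus held together less than the division lists. How well their scores track the zones was not tested.

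Linked to the S phase score were 4 of the 10, Dnmt1, Ezh2, Suz12 and Eed, where 5.4% of 5408 genes were linked in that direction. Dnmt1 had the highest rho of the group, 0.45 over all cells with 0.44 in set 1 and 0.44 in set 2. Ezh2 had 0.27 (0.32 and 0.20), Suz12 0.25 (0.27 and 0.25) and Eed 0.25 (0.34 and 0.18). The remaining 6 lay between -0.08 for Kmt2d and 0.14 for Kmt2a. The median over the 10 was 0.11, against 0.01 over all genes tested. No gene of the group was linked in the opposite direction, in which 2.46% of genes were.

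The S phase score itself rose with the number of genes above floor, with a rho of 0.22 in set 1 and 0.18 in set 2. Eed (0.35 and 0.23) and Suz12 (0.17 and 0.22) shared that relation, whereas Dnmt1 had -0.11 and -0.03 and Ezh2 -0.03 and 0.08. With the set and this number as terms, rho with the S phase score was 0.48 for Dnmt1, 0.27 for Ezh2, 0.21 for Suz12 and 0.21 for Eed. Within sets Eed then no longer passed 0.15 in both. With Pearson's r on log2(value + 1), Suz12 (0.21 and 0.12 in sets 1 and 2) and Eed (0.45 and 0.06) fell short in set 2, so that only Dnmt1 and Ezh2 were linked to S phase.

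**Figure D3:**
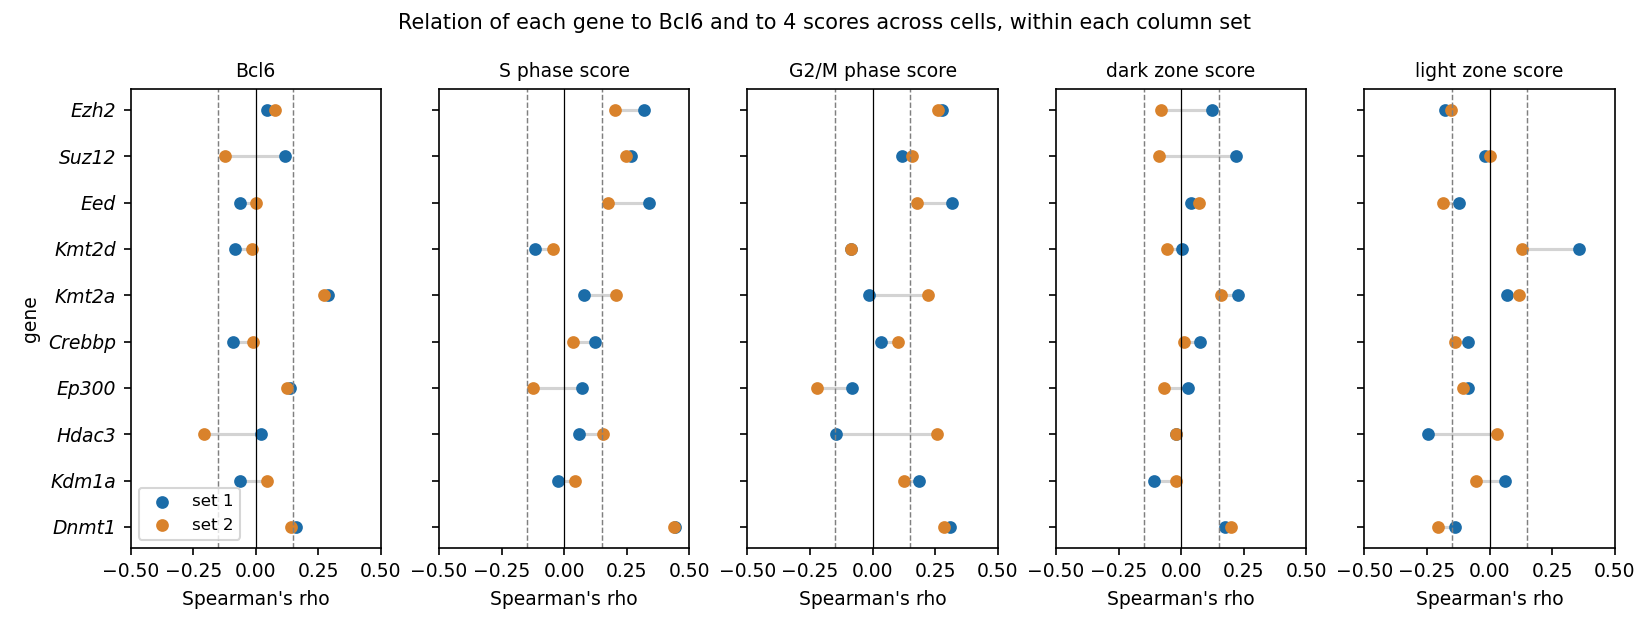
Spearman's rho across cells (x axis) of each of the 10 genes (y axis) with Bcl6 and with the S phase, G2/M phase, dark zone and light zone scores, in set 1 (blue) and set 2 (orange). Dashed lines mark -0.15 and 0.15. Dnmt1, Ezh2, Suz12 and Eed lie to the right of 0.15 in both sets for S phase, and Kmt2a does so for Bcl6.

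The G2/M phase score was linked to 3 of the 10, Dnmt1, Ezh2 and Eed, where 7.25% of genes were linked upward and 1.33% downward. Dnmt1 had 0.30 (0.31 and 0.29 within sets), Ezh2 0.28 (0.28 and 0.26) and Eed 0.25 (0.32 and 0.18). Suz12 had 0.12 (0.12 and 0.16) and fell short in set 1. Hdac3 differed in sign between the sets, -0.15 and 0.26, and that difference was not tested. With the set and the number of genes above floor as terms, Eed was again short of the line within sets, while Dnmt1 (0.34) and Ezh2 (0.28) stayed linked. Eed also fell short with Pearson's r on log2(value + 1), at 0.14 in set 1.

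Single division genes were compared in counts of cells. Ezh2 was detected in 116 of the 153 cells with Top2a, the topoisomerase of replicated DNA (75.8%, 68.2 to 82.4), and in 15 of the 29 without (51.7%, 32.5 to 70.6). With Mki67, the proliferation marker, Ezh2 was found in 117 of 152 cells (77.0%, 69.5 to 83.4) and without it in 14 of 30 (46.7%, 28.3 to 65.7). Dnmt1 was found in 103 of the 152 cells with Mki67 (67.8%, 59.7 to 75.1) and in 13 of the 30 without (43.3%, 25.5 to 62.6). Eed was found in 76 of 152 (50.0%) and 8 of 30 (26.7%). Kmt2a (86.8% with Mki67 and 73.3% without) and Suz12 (42.1% and 30.0%) were also linked to Mki67, at 0.24 (0.16 and 0.32) and 0.16 (0.15 and 0.17). Over all pairs of genes 2.33% were linked upward, and the share of all genes linked to Mki67 itself was not computed. The intervals for Ezh2 with and without Mki67 did not overlap, and those for Dnmt1 overlapped slightly. Of the genes not linked to Mki67, the shares for Kmt2d were 70.4% and 66.7%, for Crebbp 41.4% and 43.3%, and for Ep300 34.2% and 33.3%.

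**Figure D4:**
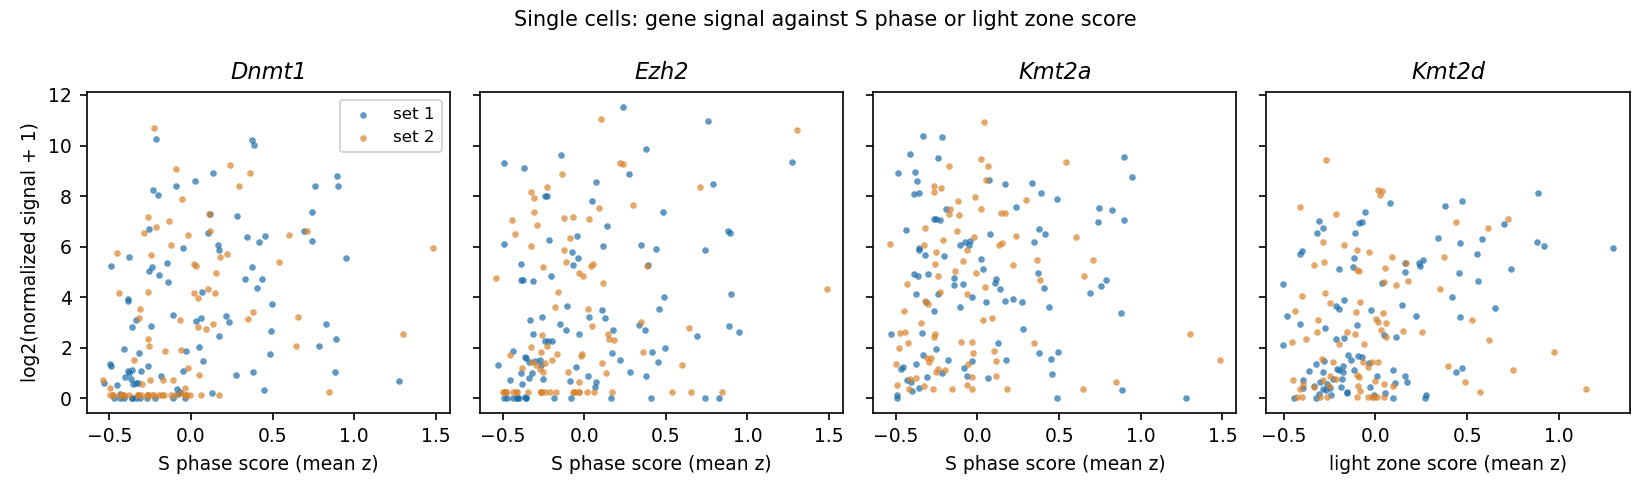
Signal of Dnmt1, Ezh2 and Kmt2a against the S phase score, and of Kmt2d against the light zone score, as log2(value + 1) (y axes) against the mean z-score of the list (x axes), with 1 point per cell, set 1 in blue and set 2 in orange. Cells at the floor of Dnmt1 gather at low S phase scores (rho 0.45), while Kmt2a shows a weaker relation (rho 0.14).

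Of the zones, the dark zone score was linked to 2 of the 10, Dnmt1 with 0.21 (0.18 and 0.20) and Kmt2a with 0.20 (0.23 and 0.16), where 1.22% of genes were linked upward and 1.79% downward. Neither call held in every setting. Kmt2a fell to 0.14 in set 2 both without cell 122 and with the set and the number of genes above floor as terms. Dnmt1 had 0.14 in set 1 with Pearson's r on log2(value + 1). Among the 11 genes of the dark zone score, Mybl1 and Lig1 were linked upward to the S phase score and Pafah1b3 downward. Whether this bears on Dnmt1, itself linked to the S phase score, was not tested. Cxcr4, the receptor that holds cells in the dark zone, was linked to none of the 10, and neither was Foxo1, a transcription factor of the dark zone. Over all pairs of genes 2.33% were linked upward and 0.737% downward, so this sets neither gene apart.

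The light zone score was linked downward to Ezh2 alone, at -0.16 (-0.18 and -0.15), where 1.74% of genes were linked downward and 0.962% upward. Dnmt1 had -0.18 (-0.14 and -0.21) and Eed -0.11 (-0.12 and -0.19), each short of the line in set 1. Which gene was linked depended on the setting. Dnmt1 was linked in place of Ezh2 with the set and the number of genes above floor as terms (-0.17 and -0.21), with Pearson's r at each pseudocount tried, and with list genes found in at least 1 cell in the score. Without cell 122 Ezh2 had -0.14 in set 2 and no gene was linked. Kmt2d had the highest positive value, 0.25, with 0.36 in set 1 and 0.13 in set 2, which falls short of the line in set 2. Kmt2d with Cd83, the light zone surface marker, gave -0.02, and with Cd86, a costimulatory ligand, 0.10. The median of the 10 genes with the light zone score was -0.10, against -0.02 over all genes.

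Bcl6, the repressor that recruits several of these enzymes, was linked to Kmt2a alone, where 1.17% of 5407 genes were linked upward and 4.88% downward. Kmt2a had a rho of 0.28 with Bcl6 (0.29 and 0.27). Kmt2a was detected in 98 of the 106 cells with Bcl6 (92.5%, 85.7 to 96.7) and in 56 of the 76 without (73.7%, 62.3 to 83.1), intervals that did not overlap. Both genes were higher where fewer genes lay above floor, at -0.27 and -0.15 for Kmt2a and -0.23 and -0.18 for Bcl6 in sets 1 and 2. With the set and that number as terms the rho was 0.25. With Pearson's r on log2(value + 10) it was 0.097 and Kmt2a was not linked. Dnmt1 had 0.15 with Bcl6 (0.16 and 0.14) and Ep300 0.13 (0.14 and 0.12). Hdac3, which acts with Bcl6 in the NCoR and SMRT complexes, had -0.01 (0.02 and -0.21), Ezh2 0.05 and Kdm1a -0.01.

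The 45 pairs among the 10 genes were compared next. In 3 pairs both sets reached 0.15, where 2.33% of 14620528 pairs of genes did so, and none reached -0.15 in both, where 0.737% did. The pairs were Ezh2 with Dnmt1 (0.32, with 0.32 and 0.33), Kmt2a with Dnmt1 (0.29, with 0.32 and 0.25) and Ezh2 with Suz12 (0.22, with 0.19 and 0.22). Ezh2 and Dnmt1 were detected together in 93 cells, where independence would give 83.5, and Kmt2a and Dnmt1 in 105 where it would give 98.2. Within the Polycomb core, Ezh2 with Eed had 0.12 (0.14 and 0.09) and Suz12 with Eed 0.09 (0.19 and 0.10). Crebbp with Ep300 had 0.02 (-0.06 and 0.08). The median over the 45 pairs was 0.03, and over all pairs of genes 0.04. Hdac3 with Kdm1a had 0.28 over all cells but 0.04 and 0.10 within sets, and was found together in 4 cells where independence would give 4.71.

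**Figure D5:**
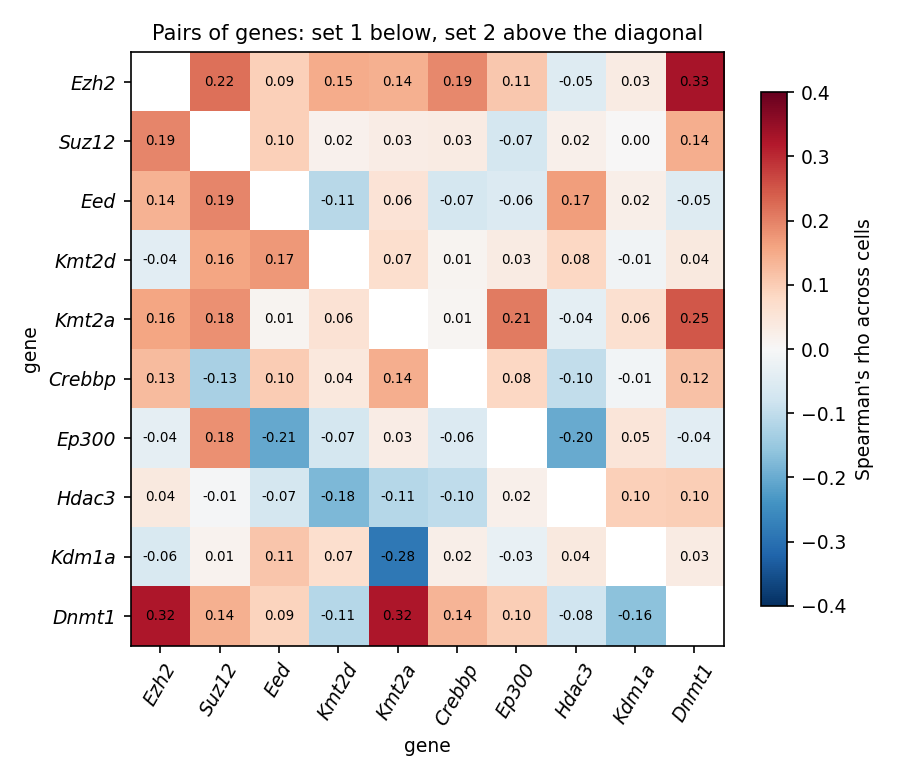
Spearman's rho across cells for each pair of the 10 genes, with set 1 below the diagonal and set 2 above it (colour scale from -0.4 to 0.4). Ezh2 with Dnmt1 is high on both sides (0.32 and 0.33), as is Kmt2a with Dnmt1 (0.32 and 0.25).

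Partners of the complexes were read from lists. Of 8 further Polycomb genes, 1 was found in over 50% of cells, Mtf2, a subunit that guides the complex to its sites (62.6%). Over all genes 3.79% reached that share. Ezh1, the paralog of Ezh2, was found in 11 cells (6.04%) against 131 for Ezh2. Of the 6 of these genes detected in at least 10% of cells, Rbbp4, a histone binding subunit, was linked to S phase (0.39 and 0.19 in sets 1 and 2), as was Phf19 (0.17 and 0.23). Jarid2, a cofactor of the complex, was linked downward (-0.18 and -0.22). Over all genes tested 5.4% were linked to S phase upward and 2.46% downward. Among the DNA methylation genes, Uhrf1, which brings Dnmt1 to newly copied DNA, was found in 120 cells (65.9%) and was linked to S phase (0.52 and 0.32). Dnmt1 and Uhrf1 were linked to each other (0.26, with 0.24 and 0.25) and were found together in 86 cells, where independence would give 76.5. The de novo methyltransferases Dnmt3a and Dnmt3b were found in 7 and 4 cells. Of the demethylating enzymes, Tet3 was found in 64, Tet2 in 18 and Tet1 in 3.

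None of the 12 partner genes of the lysine 4 methyltransferases was found in over 50% of cells, where 3.79% of all genes were. Kmt2c, the paralog of Kmt2d, was found in 62 (34.1%), and Kdm6a, the lysine 27 demethylase that joins Kmt2d at enhancers, in 36 (19.8%). Paxip1, another partner of Kmt2d, was linked to S phase (0.29 and 0.31), where 5.4% of genes were linked upward. Neither Kmt2c (-0.02) nor Kdm6a (0.04) was linked to Kmt2d. Of the 12 acetylation and corepressor genes, Ncor1, the scaffold that holds Hdac3, was found in 124 cells (68.1%) and Gps2, a subunit of the same complex, in 93 (51.1%). Hdac3 had -0.12 with Ncor1 (-0.20 and 0.03) and 0.07 with Gps2. Hdac2, a deacetylase of other corepressor complexes, was linked downward to Bcl6 (-0.17 and -0.21), where 4.88% of genes were.

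Known targets of the complexes were set against the regulators themselves. Of 15 pairs of a Polycomb core gene with Cdkn1a, Cdkn1b, Cdkn2c, Irf4 or Prdm1, none was linked in either direction, which at those shares of all pairs (2.33% upward and 0.737% downward) does not set them apart. Cdkn2c was found in 11 cells, Cdkn1a in 9 and Prdm1 in 2, below the 10% of cells that genes of the background pairs had to reach. The enhancer targets on the other list, on which acetylation is opposed by Bcl6 and Hdac3, were compared with Crebbp, Ep300, Kmt2d and Hdac3 in 52 pairs. Tnfaip3 (14 cells) and Socs3 (3 cells) on that list were also below 10% of cells. Of the 52 pairs, 1 was linked downward and 0 upward, a count near the 0.737% and 2.33% of all pairs of genes, so nothing is read from it. It was Hdac3 with Cd86, at -0.19 (-0.23 and -0.19). Hdac3 was found in 5 of the 54 cells with Cd86 (9.26%, 3.08 to 20.3) and in 28 of the 128 without (21.9%, 15.1 to 30.0), intervals that overlapped. The class II genes of the list were widely found, with H2-Ab1 and Cd74 in 180 cells each, which leaves little room for a difference in detection.

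For each regulator, the 3 genes with the highest rho over all cells among those linked to it were taken, and most of them are given here. Being the extremes of 5408 genes, they overstate the likeness. Around Ezh2 stood 2810417H13Rik, which encodes a factor bound to the replication clamp (0.34), Top2a (0.33) and Dnmt1 (0.32). Around Dnmt1 stood Anp32b, a histone chaperone (0.43), Psip1, a chromatin reader that tethers Kmt2a complexes (0.38), and the ribosomal protein gene Rpsa (0.38). Around Kmt2a stood Rpsa (0.47, with 0.48 and 0.45) and the mitochondrial synthetase gene Lars2 (0.45). Eed was nearest to Dcaf5 (0.35), the histone variant gene H2afx (0.32) and the mitotic gene Arhgap11a (0.32). Suz12 was nearest to the repair gene Fignl1 (0.39) and the centriole genes Ofd1 (0.37) and Ccp110 (0.36). Their values within sets 1 and 2 were lower, 0.19 and 0.28 for Fignl1, 0.24 and 0.23 for Ofd1, and 0.32 and 0.21 for Ccp110.

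Kmt2d had the tetraspanin gene Cd37 (0.26), Acin1 (0.25) and Rictor, a subunit of the mTORC2 kinase (0.23). Crebbp had Tcf25 (0.28), the splicing factor gene Rbm25 (0.24) and Afg3l1 (0.23), and Ep300 the RNA helicase gene Ddx6 (0.29), Arid5b (0.27) and Cntrl (0.23). The nearest genes of Kdm1a, Cstb (0.55), Gtf3c3 (0.54) and Snhg3 (0.53), had lower values within sets, 0.40 and 0.19 for Cstb. Chmp2b (0.47) and Jade1 (0.47), near Hdac3, also had lower values within sets, 0.18 and 0.28 for Chmp2b. Hdac3 and Kdm1a rose with the number of genes above floor within sets (0.22 and 0.23, and 0.32 and 0.33), and its part in their values was not tested. The share of genes linked upward was 5.25% (284 genes) for Kdm1a, 3.35% for Eed, 2.61% for Dnmt1, 2.5% for Suz12, 2.44% for Kmt2a and 2.33% for Hdac3. It was lower for Ezh2 (1.46%), Crebbp (0.703%), Kmt2d (0.629%) and Ep300 (0.351%, 19 genes).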

How the data were processed

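Each of 182 cells was captured by Fluidigm C1 and its transcriptome prepared with SMARTer and Nextera XT chemistry, per the labels' protocols. TopHat2 2.0, Cufflinks 2.2, Cuffdiff and mm10 are named, per the submitters' processing notes. The authors deposited 1 table of a normalized, non-log signal, whose normalization is not given in the sources used here. It had 17035 rows for 17034 symbols, and the first row of a repeated symbol was kept. No reads or counts were used, so depth is unknown.

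Shares of cells at a value of at least 1 have exact Clopper-Pearson 95% intervals (counting error only). Spearman's rho used scores averaged from z-scores of log2(value + 1) over list genes in at least 10% of cells, a gene being left out of its own score. The 2 column sets show in the values, and the sources used here do not say what they are. Backgrounds covered all genes in at least 10% of cells. Named were the 10 genes, 8 reference genes, list genes in over 50% of cells or linked (at most 6 a list), the cell type markers and the 3 nearest genes of each regulator. Other list genes named, Ezh1, Kmt2c, Kdm6a, Dnmt3a, Dnmt3b, Tet1, Tet2, Tet3 and Prdm1, were chosen after their values were seen. A few genes under this rule are not reported here. The genes and lists were chosen with earlier results of these data known. The lists held 1 gene not in the table among the Polycomb targets and 3 among T cell markers. Overlapping genes share exons with 5 of the 10 regulators, and whether counting used strand is not given, so reads of overlapping genes cannot be told apart. Python 3.11.15, numpy 2.4.6, scipy 1.17.1 and pandas 2.3.3 were used. Positions are from GENCODE M21 (GRCm38).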

Additional observations from a re-analysis of the deposited data

How the results depend on the processing

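Each count and relation was recomputed at other thresholds, in each set alone, without the 19 cells with the fewest genes above floor, with the set and that number as terms, with Pearson's r at pseudocounts of 1, 0.1 and 10, with list genes found in at least 1 cell in the scores, and without cell 122 (chosen after the data were seen). Ezh2 and Dnmt1 stayed linked to both division scores, for S and for G2/M, under each of these. The 4 genes in over 50% of cells became 1 at a value of at least 5 and 8 above the floor. In set 1 alone, 2 genes passed with Bcl6, 1 upward and 2 downward with the light zone, and 9 pairs passed upward. In set 2 alone, 1 gene passed downward with Bcl6, 6 upward and 1 downward with G2/M phase, 3 downward with the light zone, and 6 pairs passed upward. These use 1 set where the main counts need both. With the terms, 1 gene was linked to the dark zone (Dnmt1) and 5 pairs were linked upward. Without the 19 cells, 2 genes were linked downward to the light zone (Ezh2 and Eed) and 5 pairs upward. Pearson's r at a pseudocount of 1 linked 2 genes to S phase (Ezh2 and Dnmt1) and 1 to the dark zone (Kmt2a). At 0.1 it linked 2 to Bcl6 (Kmt2a and Dnmt1), and at 10 it linked 0 to Bcl6, 2 to S phase and 0 to the dark zone. There Ezh2 with the light zone turned from -0.16 to 0.0025. Without cell 122, 1 gene was linked to the dark zone and 0 downward to the light zone. Of the 30 nearest genes, 16 were themselves found in at least 30% of cells. A filter at that share keeps these by construction, so it is no test of them. Apart from the sets taken alone, the cause was not tested. No paired analysis was possible because all cells form 1 group. Depth is unknown, so for a gene at its floor an absent and a missed transcript cannot be told apart.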

Other observations

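Other chromatin genes mutated in lymphoma were read from a list of 9, of which 5 were detected in over 50% of cells. Over all genes 3.79% reached that share. Smarca4, the motor of the SWI/SNF remodeller, was found in 165 cells (90.7%) and was linked to the S phase (0.25 and 0.22 in sets 1 and 2) and G2/M phase scores (0.32 and 0.26). The linker histone genes were found in 101 cells for Hist1h1e, 76 for Hist1h1b, 48 for Hist1h1c and 35 for Hist1h1d. Hist1h1b (0.41 and 0.52), Hist1h1d (0.36 and 0.20) and Hist1h1e (0.37 and 0.37) were linked to S phase, and all 4 to G2/M phase. Over all genes tested, 5.4% were linked upward to S phase and 7.25% to G2/M phase. Setd2, the methyltransferase of lysine 36 of histone H3, was linked to Bcl6 (0.18 and 0.31), where 1.17% of genes were linked upward. Mef2b, an activator of Bcl6, was found in 138 cells and linked to the dark zone score (0.21 and 0.18), where 1.22% of genes were.

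Of the Polycomb targets, Cdkn1b, an inhibitor of cyclin-dependent kinases, was linked downward to Bcl6 (-0.28 and -0.44), where 4.88% of genes were. Bcl6 was found in 18 of the 48 cells with Cdkn1b (37.5%), which exact 95% limits place between 24.0 and 52.6, and in 88 of the 134 without (65.7%, 57.0 to 73.7). The intervals did not overlap. The pair was looked at after its values were seen.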
